A study of Mus musculus with 6 samples.

Results

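Colony-stimulating factors (CSFs) and their receptors were examined in peritoneal macrophages from mice with ID8 ovarian tumors, after intraperitoneal PBS or nanoparticles carrying IRF5 mRNA (IRF5-NPs). The genes were taken by symbol, as every gene of the measured panel named Csf followed by a digit, which gave 6 of 754 genes. They are 3 ligands, Csf1, Csf2 and Csf3, and 3 receptor genes, Csf1r, Csf2ra and Csf3r. Expression was read as counts of color-coded probes hybridized to RNA (NanoString nCounter), with no amplification step, in 3 samples from the PBS group and 3 from the IRF5-NP group. All mice were C57BL/6J by their labels and carried ID8 cells, a mouse ovarian surface epithelial tumor line, for 7 weeks before treatment. Both groups were dosed 2 times, on days 1 and 5, and each IRF5-NP dose held 30 µg of mRNA. F4/80+ CD11b+ cells were then sorted from the peritoneal lavage. For the ovarian model the study's methods name another dose, a shorter tumor interval, female albino B6 mice and VEGF-expressing ID8 cells. The labels are followed here. The paper describes its profiled peritoneal macrophages as coming from mice given nanoparticles with both IRF5 and IKKβ mRNA, so IKKβ mRNA may have been in these particles too. The groups differ by the particle as well as by its mRNA, and no group with a control mRNA is among these samples.

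CSFs are secreted proteins that keep myeloid cells alive and direct their growth and maturation. CSF1 (M-CSF) acts through CSF1R, a receptor tyrosine kinase on which most tissue macrophages depend. CSF2 (GM-CSF) binds the alpha chain encoded by Csf2ra, which pairs with a beta chain shared with the IL-3 and IL-5 receptors and signals through JAK2 and STAT5. CSF3 (G-CSF) binds CSF3R, a receptor best known from neutrophils and their precursors and also present on monocytes, which signals through JAK kinases and STAT3 and is held in check by SOCS3.

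Values are normalized counts, that is, counts scaled by the authors to housekeeping genes. Divided by the scaling factor found for each sample, they summed to between 683472 and 1830318 counts per sample. A background was set for each sample 2 SD above the average of its negative control probes. The values of these probes were taken as unscaled counts and multiplied by the scaling factor of the sample, 2.60 in IRF5-NP replicate 3. The background was 79.4 normalized counts in IRF5-NP replicate 3, the shallowest sample, and between 25.6 and 37.8 in the other samples. PBS replicates 2 and 3 could not be distinguished from sampling noise: chi-square divided by its degrees of freedom, 1 for noise alone, was 1.07 for this pair and 7.07 or more for every other pair of samples. Their mean therefore stood for 1 sample in the tests, and n was 2 for PBS and 3 for IRF5-NPs. Nothing in the labels says that the samples came from separate mice, and p-values then measure only the spread between these samples. Between the samples, Adgre1 and Itgam, the genes of F4/80 and CD11b, were uneven. Adgre1 had 25506 and 22544 normalized counts in IRF5-NP replicates 2 and 3, against 6523 to 9145 in the other 4 samples. The Irf5 probe read 2573, 1991 and 1929 normalized counts with PBS and 1960, 2358 and 2294 with IRF5-NPs, and whether it binds the codon-optimized mRNA of the particles was not tested.

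Of the 6 genes, Csf3r alone passed the threshold after IRF5-NPs (limma, Benjamini-Hochberg adjusted p under 0.05 over all 754 genes), and it was higher on the deposited scale but not when samples were scaled to the sorting markers, as given below with its values. Of all panel genes 9.55% passed in either direction and 2.52% passed as higher, that is 19 higher and 53 lower. The split was 42 higher and 36 lower with a common median for all samples, 35 and 40 with quantile normalization, and 0 and 84 with scaling to the sorting markers. With 6 separate samples, which count PBS replicates 2 and 3 apart, 121 genes passed in place of 72, and 135 when the replicate block was added. Csf2ra and Csf3r were the CSF genes whose 3 IRF5-NP values all lay above the 3 PBS values, a separation seen in 17.0% of panel genes. Csf1 and Csf1r were measured well above background with overlapping groups, and Csf2 and Csf3 lay at or near background. The plot of levels by sample shows all 6 genes.

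**Figure D1:**
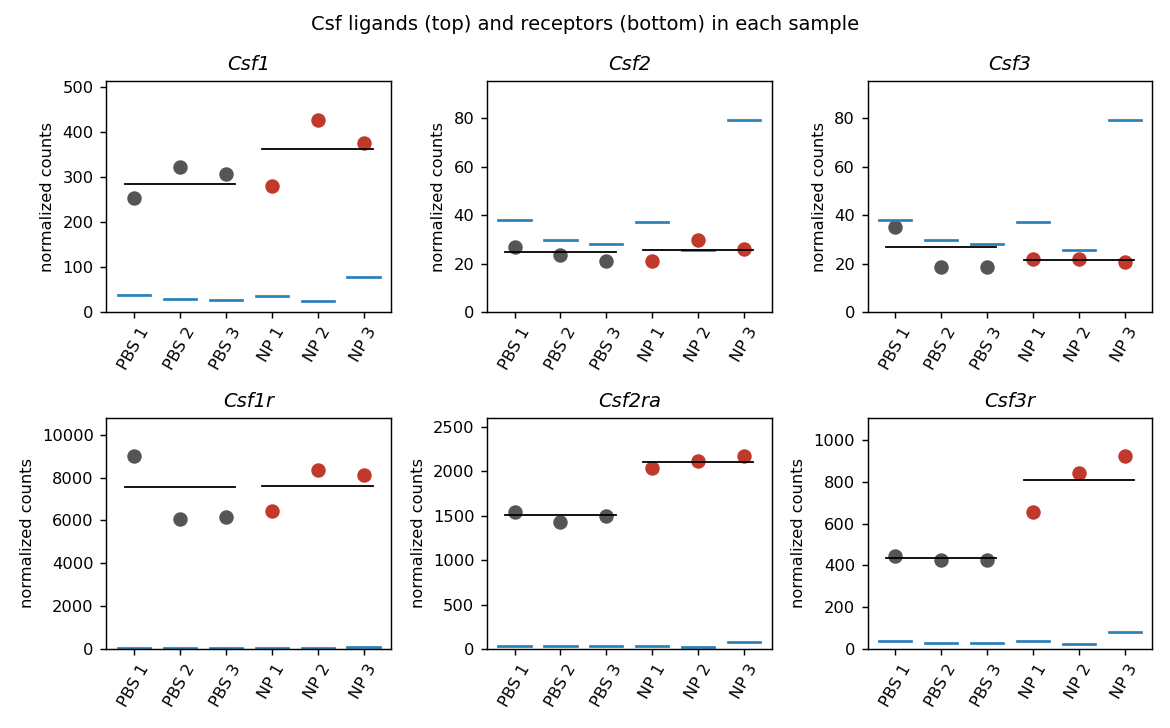
Normalized counts (y axis, linear, starting at 0) of the 3 CSF ligands and 3 receptor genes in each of the 6 samples (x axis; NP, IRF5-NP), where points are samples, black lines are group means with PBS replicates 2 and 3 counted as 1, and blue bars are the background of each sample. On this deposited scale Csf3r and Csf2ra separate by group, Csf1 and Csf1r overlap, and Csf2 and Csf3 sit near the blue bars.

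Among the ligands, Csf1, the main macrophage growth factor, was the one measured above background in every sample. It had 254, 322 and 308 normalized counts in PBS replicates 1, 2 and 3, and 280, 428 and 377 in IRF5-NP replicates 1, 2 and 3. The IRF5-NP replicate 1 value lay within the PBS range and the other IRF5-NP values lay above it. The log2 fold change of IRF5-NPs over PBS was 0.33 (standard error 0.25, limma adjusted p = 0.501), with a 95% interval of -0.26 to 0.92. Csf2, the GM-CSF gene, read 21.3 to 27.0 normalized counts with PBS and 20.9 to 29.8 with IRF5-NPs, and passed the background in 1 sample, IRF5-NP replicate 2. Csf3, the G-CSF gene, read 18.6 to 35.3 and 20.8 to 22.1 normalized counts and passed the background in 0 of 6 samples. These readings rest on 8 to 34 counts per sample, so small changes or a fall of either ligand were not detectable at this depth, and no fold change is given for them.

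Csf1r, the receptor of CSF1, had 8996, 6071 and 6155 normalized counts in the PBS replicates and 6426, 8344 and 8120 in the IRF5-NP replicates. PBS replicate 1 held the highest value and PBS replicate 2 the lowest, so the IRF5-NP values lay wholly within the PBS range. The log2 fold change was 0.03 (standard error 0.28, limma adjusted p = 0.960), with a 95% interval of -0.61 to 0.68. That interval holds a fold change anywhere between 0.654 and 1.60, and the p-value does not show that the groups were alike. Each sample pools many cells, so a change in the number of cells that carry a receptor and a change of its RNA per cell cannot be told apart, for this and every gene below.

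Csf2ra, the ligand-binding chain of the GM-CSF receptor, had 1547, 1432 and 1495 normalized counts with PBS and 2038, 2114 and 2170 with IRF5-NPs. The groups did not overlap, and the lowest IRF5-NP value was 1.32 times the highest PBS value. Means were 1505 ± 59.6 (SD, n = 2) for PBS and 2107 ± 66.1 (SD, n = 3) for IRF5-NPs. The log2 fold change was 0.49 (standard error 0.19, 95% interval 0.04 to 0.93). After adjustment over the panel it did not pass (limma adjusted p = 0.160). The call turned on the processing. With 6 separate samples, which counts the near-identical PBS replicates 2 and 3 apart, it passed (0.50, limma adjusted p = 0.0451). It also passed with quantile normalization (0.78, adjusted p = 0.0399) and background subtraction (0.49, adjusted p = 0.0364). The replicate block with 6 separate samples left it above the threshold (adjusted p = 0.0651).

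Csf3r, the G-CSF receptor, had 445, 425 and 424 normalized counts in the PBS replicates and 658, 840 and 922 in the IRF5-NP replicates. The PBS values lay close together, and every IRF5-NP value lay above them, with replicate 1 the lowest of its group. The mean rose from 435 ± 14.2 (SD, n = 2) to 807 ± 135 (SD, n = 3), a fold change of 1.84 (log2 fold change 0.88, standard error 0.22, limma adjusted p = 0.0459, 95% interval 0.37 to 1.39). Ordered by size, it was number 17 of the 19 genes that rose past the threshold. The unscaled counts behind it were 429, 411 and 339 with PBS and 691, 762 and 355 with IRF5-NPs.

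The Csf3r call lay close to the threshold and rested on single samples. Leaving out PBS replicate 1 ended it (log2 fold change 0.91, limma adjusted p = 0.122), as did leaving out IRF5-NP replicate 2 (0.84, adjusted p = 0.154) or IRF5-NP replicate 3 (0.77, adjusted p = 0.201). Without PBS replicate 1 the PBS group is 1 averaged sample, assumed to vary like the IRF5-NP group, and the fold change was no smaller. The call was kept without IRF5-NP replicate 1 (1.02, adjusted p = 0.0328). PBS replicates 2 and 3 stand for each other, so leaving out either bears little on the call. With each sample shifted to the same mean of Adgre1 and Itgam, the genes of the sort, the log2 fold change was -0.01 (adjusted p = 0.992). The interval was -1.35 to 1.33. That scaling shifts all genes of a sample alike and moved the median of all 754 genes from -0.03 to -0.91, so the distance of Csf3r from the median, 0.91, is the same on both scales by construction. On the same scale Csf2ra stood at -0.40, Csf1 at -0.55 and Csf1r at -0.85. On that scale 0 of 6 CSF genes passed, and 0 had an unadjusted limma p under 0.05. Whether the uneven Adgre1 and Itgam values reflect cells or probes was not tested.

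**Figure D2:**
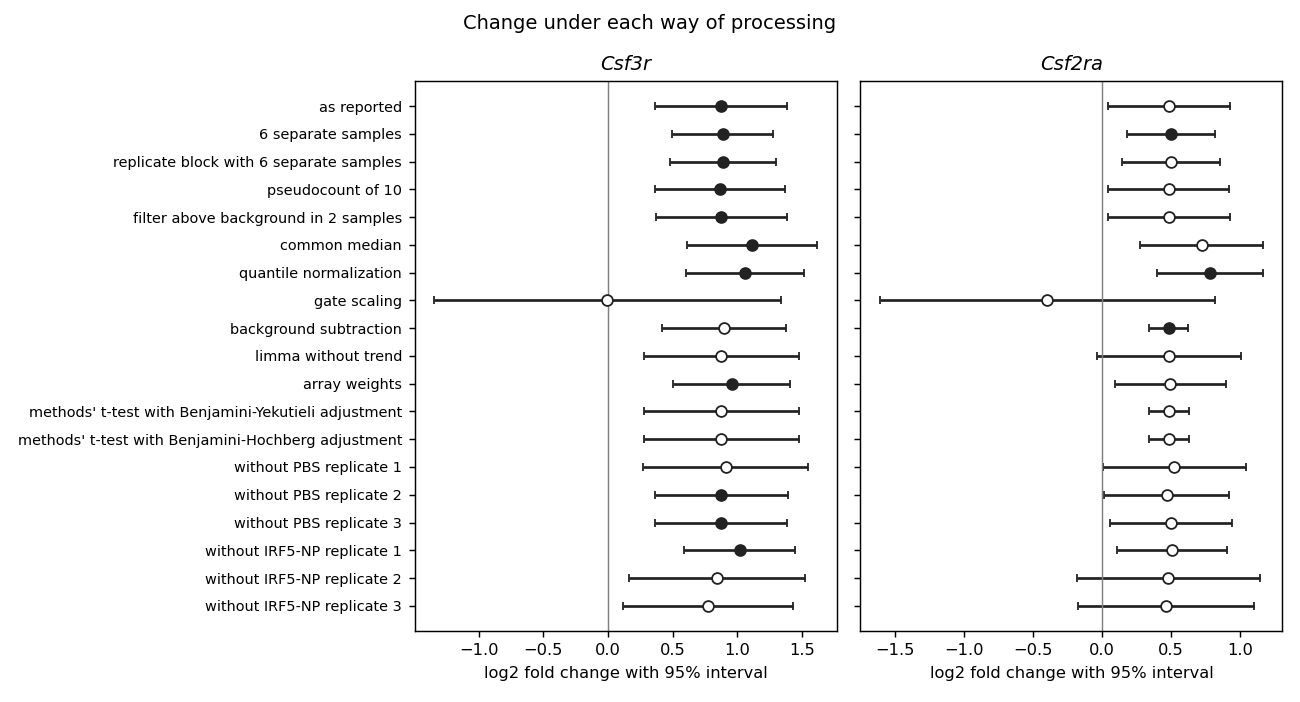
Log2 fold change of IRF5-NPs over PBS (x axis) with its 95% interval for Csf3r (left) and Csf2ra (right) under each way of processing (y axis), with filled points for an adjusted p under 0.05. Csf3r was near 0.88 in most rows, at 1.11 with a common median and at -0.01 with gate scaling, while Csf2ra ranged from -0.40 to 0.78.

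As Csf3r and Csf2ra were the 2 CSF genes that separated by group, the 250 bases before their annotated starts are shown, from RefSeq on build GRCm38.p6. The stretch is chr4:126024409-126024658 on the plus strand for Csf3r and chr19:61228419-61228668 on the minus strand for Csf2ra, each written 5′ to 3′ on the gene's strand. Capitals mark GAGGAA, a core bound by PU.1, the ETS factor of myeloid genes.
Csf3r: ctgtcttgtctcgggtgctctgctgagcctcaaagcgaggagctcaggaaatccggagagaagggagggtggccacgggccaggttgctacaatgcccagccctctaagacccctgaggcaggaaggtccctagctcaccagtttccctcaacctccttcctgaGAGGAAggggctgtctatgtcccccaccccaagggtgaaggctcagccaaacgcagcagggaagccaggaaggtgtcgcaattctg
Csf2ra: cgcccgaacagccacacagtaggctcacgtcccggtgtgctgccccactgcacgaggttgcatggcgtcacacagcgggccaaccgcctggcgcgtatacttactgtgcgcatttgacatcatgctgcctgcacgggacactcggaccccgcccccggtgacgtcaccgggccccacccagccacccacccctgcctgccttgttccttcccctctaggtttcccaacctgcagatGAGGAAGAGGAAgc
GAGGAA starts 86 bases before the Csf3r start, and 14 and 8 bases before the Csf2ra start. On either strand it is found in 23.3% of the 32851 stretches of the same length in the table. The C/EBP letters TTGCNNAA, found in 9.56% of them, and the IRF letters GAAANNGAA, found in 7.13%, were not matched in these windows on either strand. The motifs do not overlap each other here, and a match is a description of the letters only.

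The receptors were then compared with each other inside each sample, where the scaling between samples cancels. Relative to Csf1r, the log2 change of Csf3r was 0.84 (standard error 0.31, 95% interval 0.18 to 1.51), and it did not pass (limma adjusted p = 0.105 over 753 genes, of which 11.0% passed). Csf2ra relative to Csf1r was at 0.45 (95% interval -0.16 to 1.07, limma adjusted p = 0.417), and Csf1 relative to Csf1r at 0.30 (95% interval -0.47 to 1.07, limma adjusted p = 0.767). The log2 ratio of Csf3r to Csf1r was -4.33, -3.83 and -3.86 in the PBS replicates and -3.29, -3.31 and -3.14 in the IRF5-NP replicates, with no overlap. Its level depends on both probes and only its shift is read. By a two-sided exact permutation test the shift of 0.84 had p = 0.1, the smallest that 10 arrangements of 5 samples allow. The ratio of Csf2ra to Csf1r shifted by 0.45 (p = 0.1, exact permutation) and that of Csf3r to Csf2ra by 0.39 (p = 0.2, exact permutation), and adjusted over the 3 pairs the p-values were 0.15, 0.15 and 0.2. No pair could pass 0.05 in a design of this size. The order of the changes, Csf3r above Csf2ra above Csf1 above Csf1r, is therefore a description, and none of the neighbours in it were shown to differ.

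**Figure D3:**
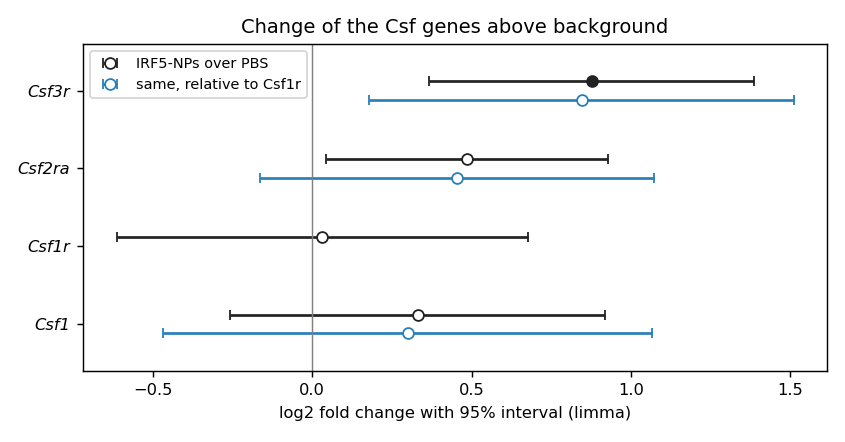
Log2 fold change of IRF5-NPs over PBS (x axis) with 95% limma intervals for the 4 CSF genes above background (y axis), as measured (black) and relative to Csf1r in the same sample (blue). The filled point, Csf3r at 0.88 on the deposited scale (-0.01 with scaling to the sorting markers), passed the adjusted threshold and the open points did not.

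Other genes of each axis were followed as lists of ligands, receptors, kinases, transcription factors and targets. On the M-CSF axis 4 of 10 listed genes were on the panel, with 0 higher, 0 lower and a median log2 fold change of 0.18, against -0.03 for all genes. On the GM-CSF axis 9 of 15 listed genes were on the panel, with 0 higher, 0 lower and a median of 0.09. Il3ra, the alpha chain of the IL-3 receptor that shares the beta chain with Csf2ra, had 423, 350 and 342 normalized counts with PBS and 394, 654 and 663 with IRF5-NPs (log2 fold change 0.54, limma adjusted p = 0.296). Stat5a and Stat5b, which carry the GM-CSF signal, were at 0.05 and 0.18 (adjusted p = 0.917 and 0.703), and the ligand genes Il3 and Il5 lay near or below background.

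On the G-CSF axis 9 of 14 listed genes were on the panel, with a median of -0.24. Of these 1 passed as higher, Csf3r itself, and 2 as lower, Socs3 and Cxcr4. Over all panel genes 9.55% passed in either direction. Socs3, the feedback inhibitor of this receptor and of other STAT3-coupled receptors, had 2119, 1593 and 1585 normalized counts with PBS and 1106, 769 and 850 with IRF5-NPs. It fell by 1.03 on the log2 scale (standard error 0.24, limma adjusted p = 0.0380), and did not pass in the same 3 cases that ended the Csf3r call, without PBS replicate 1 or without either of IRF5-NP replicates 2 and 3 (log2 fold change -1.18 to -0.82 over all 6 cases, adjusted p up to 0.180). Cxcr4, the CXCL12 receptor that keeps neutrophils in the marrow, had 1150, 734 and 736 normalized counts with PBS and 273, 209 and 286 with IRF5-NPs. It fell as well (log2 fold change -1.85, limma adjusted p = 0.00567), and passed with each sample left out in turn. Stat3, the main signal carrier of CSF3R, was at -0.12 (adjusted p = 0.771). Cebpa and Cebpb, C/EBP factors of granulocyte and macrophage genes, were at -0.40 and 0.11 (adjusted p = 0.403 and 0.870). Of 8 listed genes of other early myeloid growth factors and receptors 5 were on the panel, among them Kit, Kitl and Flt3, and 0 passed.

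Because CSF3R is best known from neutrophils, neutrophil genes were set beside it. Of 21 listed markers 13 were on the panel. Of these 0 passed as higher and 1 as lower, against 9.55% of all panel genes in either direction. The 13 markers had a median log2 fold change of -0.85. Their summed level was 3399 to 8551 normalized counts with PBS, highest in PBS replicate 1, and 1798 to 2689 with IRF5-NPs. Ly6g, the surface antigen that defines neutrophils, read 22.5 to 25.9 normalized counts with PBS and 30.5 to 44.2 with IRF5-NPs, above background in IRF5-NP replicate 2 alone. Cxcr1, Camp and Mpo, genes of neutrophil migration and granules, lay below background in all 6 samples. S100a8, an abundant neutrophil calcium-binding protein, had 3405, 1171 and 1189 normalized counts with PBS and 987, 512 and 686 with IRF5-NPs (log2 fold change -1.51, limma adjusted p = 0.0767). Mmp8, the neutrophil collagenase, fell from 157, 90.0 and 83.9 to 27.6, 33.1 and 33.8 normalized counts (log2 fold change -1.86, limma adjusted p = 0.0158), with 2 of the IRF5-NP values below background, and lost its call when PBS replicate 1 or either of IRF5-NP replicates 1 and 3 was left out (-1.91 to -1.44 over all 6 cases). Fpr1, a formyl peptide receptor measured above background in every sample, was at 0.15 (limma adjusted p = 0.796).

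**Figure D4:**
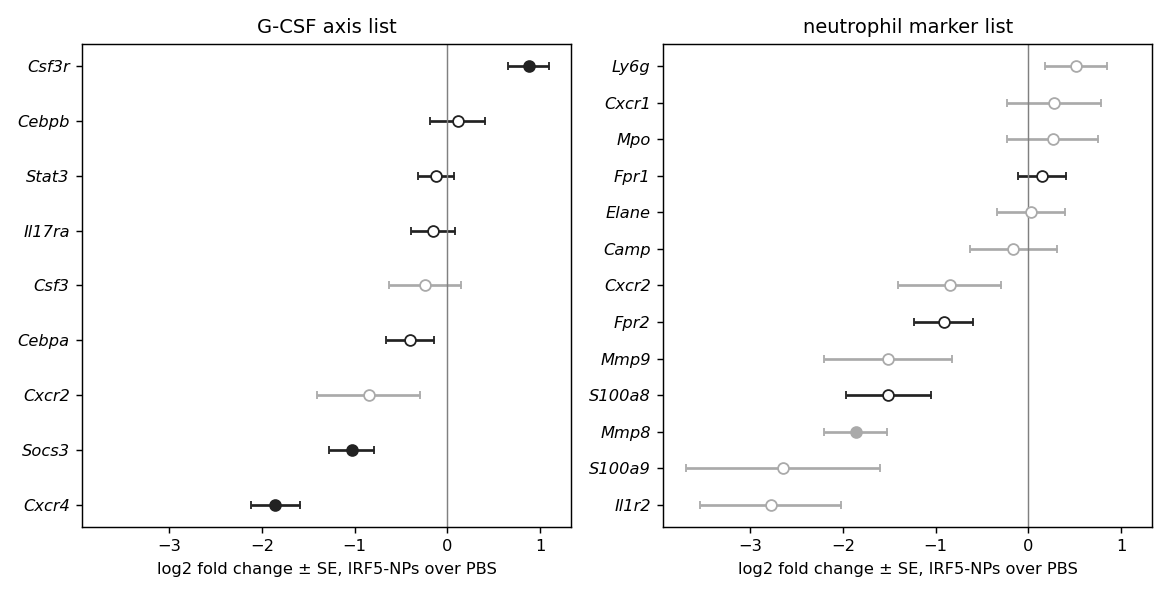
Log2 fold change of IRF5-NPs over PBS with its standard error (x axis) for the panel genes of the G-CSF axis list (left) and of the neutrophil marker list (right), with filled points for an adjusted p under 0.05 and grey points for genes below background in at least 1 sample. Csf3r at 0.88 (-0.01 with scaling to the sorting markers) is the one filled point right of 0, and Cxcr4, Socs3 and Mmp8 are the filled points left of it.

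Markers of other cells moved with the treatment too, and their part in the Csf3r and Csf2ra results was not tested. Over all panel genes 9.55% passed in either direction and 2.52% as higher, and 17.0% had all 3 IRF5-NP values above all 3 PBS values. Of 12 genes of resident (large) peritoneal macrophages 7 were on the panel, of which 2 passed as higher, Timd4 and Selp. No overlap between groups was seen in 6 of 7. Their summed level was 25766 to 61142 normalized counts with PBS and 84016 to 143004 with IRF5-NPs. The 7 macrophage identity genes, with Mertk passing as lower, summed to 61208 to 67982 and 45631 to 98786 normalized counts, and all 7 were above background in every sample. The 6 monocyte genes, with Chil3 passing as lower, summed to 22687 to 31075 and 6662 to 7400, and the 6 dendritic cell genes, with Itgax passing as lower, to 389 to 433 and 178 to 231. The 7 mast cell and basophil genes, with Cpa3 and Hdc passing as higher, summed to 251 to 376 and 584 to 988 normalized counts. Hdc, the histidine decarboxylase gene, made up most of that sum, with 143 to 242 and 415 to 865, and Kit went the other way without passing (log2 fold change -0.70, limma adjusted p = 0.245). Ms4a1, the B cell gene on the panel, passed as higher, with 16.3 to 25.9 and 50.5 to 75.4. Cpa3 and Ms4a1 were each above background in 2 of 6 samples, so these calls rest on readings near background. The 7 eosinophil genes (100 to 131 and 97.1 to 161) and 2 NK cell genes (69.5 to 101 and 61.9 to 85.8) held no gene that passed. In the dendritic cell, eosinophil and NK cell lists 0 genes were above background in every sample, and 5 eosinophil genes were below it in all. The sums of these 3 lists therefore include readings near or below background. Itgax had 145 to 204 and 40.9 to 48.5 normalized counts. Xcr1, another dendritic cell gene, went up at readings below background without passing (log2 fold change 0.64, limma adjusted p = 0.379). When each sample was left out in turn, Chil3 and Itgax passed in 6 of 6 cases, Timd4 and Hdc in 4 (not without PBS replicate 1 or IRF5-NP replicate 3), and Selp, Mertk, Cpa3 and Ms4a1 in 2 (not without PBS replicate 1 or any IRF5-NP replicate). With scaling to the sorting markers, where the median of all genes was -0.91, Timd4, Selp, Hdc, Cpa3 and Ms4a1 did not pass. Their limma adjusted p-values ran from 0.125 to 0.571. Chil3, Itgax and Mertk passed as lower on that scale too. No gene of the T cell or the tumor and mesothelial lists was on the panel.

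Panel genes whose profiles over the 6 samples lay closest to each CSF gene were found among 478 other genes above background in every sample. The measure was the root-mean-square difference of log2 values centered on each gene's mean. It includes the difference between groups, so similar changes in the genes found follow from how they were picked. Closest to Csf3r was S100a4, a calcium-binding protein of motile cells, at a difference of 0.12, with 9091 to 10273 normalized counts with PBS and 13261 to 18070 with IRF5-NPs (log2 fold change 0.66, limma adjusted p = 0.181). Selplg, the selectin ligand PSGL-1, and Sptbn1, a spectrin, followed at 0.15 each, and of the 3 genes Sptbn1 passed (0.87, limma adjusted p = 0.0326, and -0.01 with scaling to the sorting markers). Like Csf3r, it lost its call when PBS replicate 1 or either of IRF5-NP replicates 2 and 3 was left out (0.78 to 0.91 over all 6 cases). Closest to Csf2ra were Tm7sf3 and Cd151, a tetraspanin, at 0.08 each, and Ephb6 at 0.09. Closest to Csf1 were Man2b1, Gusb and Casp1, at 0.07 to 0.09, of which the first 2 encode lysosomal enzymes. Closest to Csf1r was Irf5 at 0.08, then Lat2 and Rin2 at 0.09 each, all with the highest value in PBS replicate 1.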

How the data were processed

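The deposited unit is a signal: normalized counts, not logged, which the authors scaled to housekeeping genes in nSolver 4.0, a step the paper describes for its cultured macrophages. In each sample 1 factor turned all 754 gene values into whole numbers (tolerance 0.01 normalized counts), and these counts served for depth and the comparison of replicates. For the background, the same factor brought the negative control values, taken as unscaled, to the normalized scale. Groups came from the sample titles. Changes were tested on log2 values with a pseudocount of 1 by limma 3.58.1 in R 4.3.3 (lmFit, eBayes with trend, two-sided, Benjamini-Hochberg over all genes, threshold 0.05), after a check on simulated data. The CSF genes, lists, tests and the averaging of PBS replicates 2 and 3 were chosen with earlier results of these data known. Named genes are the CSF genes, Irf5, the 3 closest profiles of each, and from each list the genes that passed and some that did not. Deviations of same-numbered replicates had correlations of 0.236, 0.242 and 0.162 over 478 genes, which are not independent replicates. Differently numbered replicates were not compared, so these values cannot show that the samples were paired. Whether the numbers pair the samples was left as an assumption, and a replicate block was fitted as an alternative. It used 6 separate samples, since the averaged PBS sample leaves no full pairs. Promoter stretches are from RefSeq. Of the 6 CSF genes, Csf1r and Csf3 had no promoter entry in the table used. A gene of the M-CSF axis list is not reported here by name.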

Additional observations from a re-analysis of the deposited data

How the results depend on the processing

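Over 18 alternatives, Csf3r kept its call in 10, of which 2 leave out one of the averaged PBS replicates. Also among the 10 are the fits with 6 separate samples, with and without the replicate block. These count PBS replicates 2 and 3 apart, though the pair could not be distinguished from sampling noise, so they add little to the call. With gate scaling, which sets the mean of Adgre1 and Itgam equal in every sample and shifts all genes of a sample alike, it was near 0 (-0.006841, 95% interval -1.35 to 1.33), and Csf2ra (-0.40), Csf1 (-0.55) and Csf1r (-0.85) changed sign. Past the threshold no longer, at the same direction, was Csf3r with background subtraction (0.90, adjusted p = 0.107), limma without trend (0.88, adjusted p = 0.105) and the methods' t-test (0.88, adjusted p = 1 by Benjamini-Yekutieli and 0.216 by Benjamini-Hochberg, the latter chosen after seeing the data). With samples left out it lay between 0.77 and 1.02. The number of CSF genes past the threshold, 1 as reported, was 2 with 6 separate samples and with quantile normalization, 0 with gate scaling, limma without trend and both t-tests (unadjusted p under 0.05 for 0 CSF genes with gate scaling, 1 without trend and 2 by the t-test, against 2 by limma as reported), and 0 to 1 with samples left out, being 0 without PBS replicate 1 and without IRF5-NP replicates 2 or 3. With background subtraction the 1 gene was Csf2ra. The replicate block with 6 separate samples left the CSF calls as reported (Csf3r 0.89, adjusted p = 0.0152), and Csf2ra, called with 6 separate samples, was not called with it. Over the panel 72 genes passed, against 121 with 6 separate samples, 135 with the replicate block, 125 with array weights, 41 without trend, 24 with background subtraction, 0 with both t-tests (125 unadjusted, 191 by limma), and 21 to 83 with samples left out (35 without PBS replicate 1, 41 and 21 without IRF5-NP replicates 2 and 3). The share of higher genes was 19 of 72, and 42 of 78 with a common median, 35 of 75 with quantile normalization and 0 of 84 with gate scaling. Csf1r, near 0, lay between -0.0378 and 0.31 with samples left out, and Csf1 relative to Csf1r between -0.13 and 0.35. For these changes the cause was not tested. The edgeR alternative was not run. Although 1 factor per sample gave whole numbers for all 754 genes, a separate check on the steps between low values did not accept the 3 IRF5-NP samples. Their unscaled counts therefore serve as a description of depth. The backgrounds of these 3 samples and their chi-square comparisons rest on the same factors. Depth limits Csf2, which cleared the background in 1 sample, and Csf3, which cleared it in 0 of 6.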
